A study of Homo sapiens with 40 samples.

Results

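The genes described are 9 members of the Ras and Rap families of small GTPases: HRAS, NRAS, RRAS, RRAS2, MRAS, RAP1A, RAP1B, RAP2A and RAP2B. They were taken as the array's probe sets whose platform annotation holds 1 of these symbols. A probe set with a single gene symbol was found for 8 of the 9, out of 18417 genes measured in all. NRAS had no listed probe set and is not analysed here. The cells were MDA-MB-231, an established human breast cancer line of mesenchymal character, and their total RNA was hybridised to 40 arrays (Affymetrix Human Gene 1.0 ST).

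There were 10 groups of 4 arrays each. In lot I, cells received 30 µM zoledronate, 2 µM fluvastatin or solvent only, for 12 h or for 24 h. In lot II, cells received 30 µM zoledronate or solvent for 48 h, and 100 µM zoledronate or solvent for 24 h. Every group was the same unmodified line in serum-containing medium, every control was a mock treatment run in parallel, and the labels call the 4 replicates of a group independent. All values are deposited log2 RMA signals, in which 1 unit is a doubling of the signal. A level of 1 gene can be followed across arrays, but probe sets of different genes cannot be ranked against each other.

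Ras and Rap proteins switch between a GTP-bound, active form and a GDP-bound, inactive form. Guanine nucleotide exchange factors (GEFs) load GTP, and GTPase-activating proteins (GAPs) speed its hydrolysis. The members end in a CAAX motif, to which a farnesyl or a geranylgeranyl group is attached so that the protein can sit in membranes. Fluvastatin inhibits HMG-CoA reductase and nitrogen-containing bisphosphonates such as zoledronate inhibit farnesyl diphosphate synthase, and both enzymes lie upstream of these lipid groups in the mevalonate pathway. The arrays measure the transcripts of the GTPases, and neither their lipid groups nor their activity.

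Of the members measured, RRAS and RAP2A changed in at least 1 treated group and the other 6 passed the test in none. Of all genes, 32% changed with 100 µM zoledronate, 10.5% with fluvastatin at 24 h and 7.59% with 30 µM zoledronate at 48 h. RRAS transcript reached 2.05 times its control level with 100 µM zoledronate at 24 h and 1.35 times with fluvastatin at 24 h. The fluvastatin call was lost without the fluvastatin array of replicate 1 (log2 change 0.22, adjusted p = 0.145 by limma). RAP2A reached 1.26 times its control level with 100 µM zoledronate at 24 h and 1.24 times with 30 µM zoledronate at 48 h. The 48 h call was lost in several alternative fits given below. HRAS, RRAS2, MRAS, RAP1A, RAP1B and RAP2B had fitted changes of at most 0.23 in size on the log2 scale in any of the 6 treated groups. The test was limma's moderated test with each treated array set against the control array of the same lot, time and replicate number, two-sided and adjusted by Benjamini-Hochberg over all 18417 genes, and a gene is said to rise or fall where its adjusted p was under 0.05. Errors of changes are standard errors, errors of group means are standard deviations of 4 arrays, and intervals are 95% confidence intervals. The standard error of a gene's change comes from 1 spread fitted over all 40 arrays. It is therefore the same in each of the 6 treated groups and is not the spread of that group's own pairs.

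**Figure D1:**
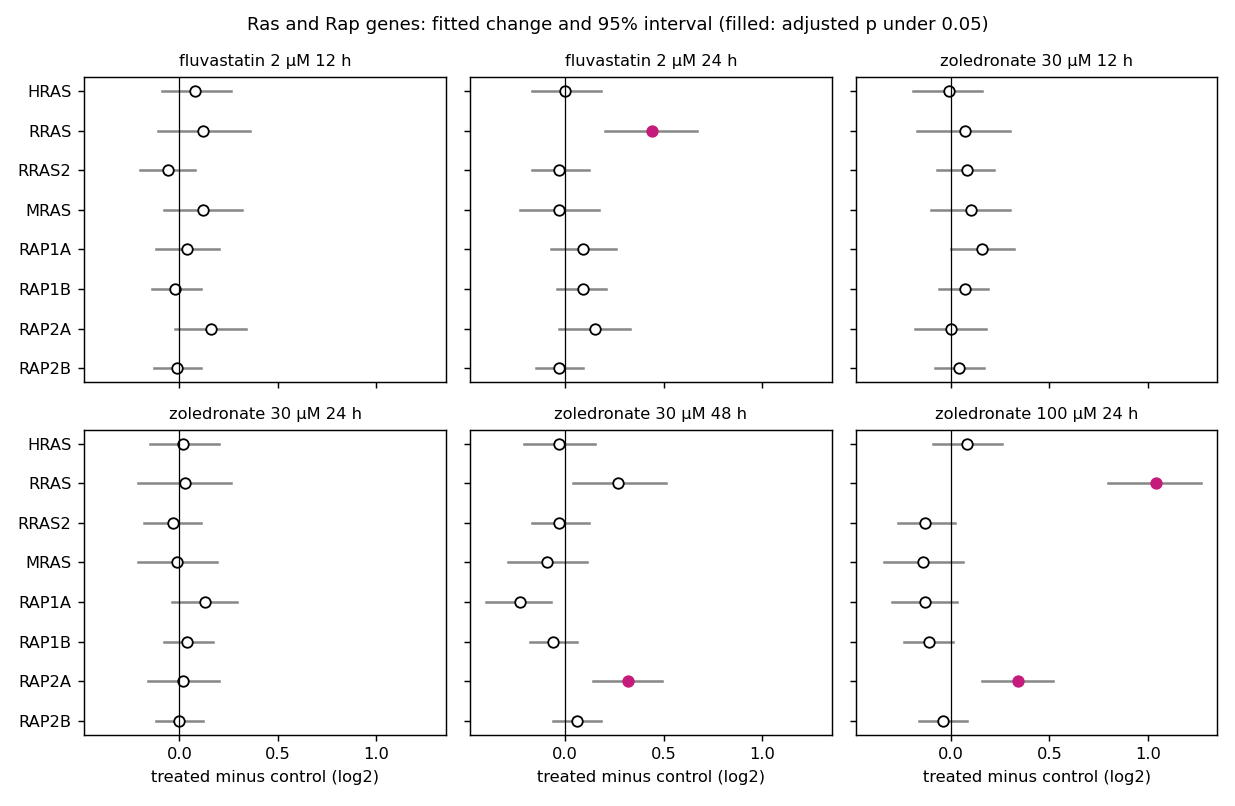
Fitted log2 change, treated minus control, of the 8 measured Ras and Rap genes (rows) in the 6 treated groups (panels), with 95% confidence intervals; filled points had an adjusted p under 0.05. RRAS stands far to the right with 100 µM zoledronate at 24 h (1.04), and RAP2A is filled in both lot II panels (0.32 and 0.34).

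Array medians lay between 6.19 and 6.33, and no 2 arrays held identical values. The mesenchymal markers of the line read 12.25 (VIM), 11.32 (AXL), 11.1 (CD44) and 10.63 (CAV1) in the mean of all arrays. The luminal markers were mixed, with 11.66 for KRT18, 11.43 for KRT8, 8.12 for EPCAM, 7.89 for ERBB2, 6.37 for GATA3, 4.93 for ESR1, 4.78 for CDH1 and 4.68 for PGR. The blood cell markers read 6.11 (CD14), 5.39 (HBB), 4.69 (CD3E) and 3.39 (PTPRC). The fibroblast and endothelial markers read 7.3 (COL1A1), 5.93 (PECAM1), 5.19 (CDH5), 4.79 (VWF), 4.78 (PDGFRA) and 3.41 (DCN). Since probe sets of different genes cannot be ranked, these readings describe the cultures and are no test of their identity, and a dim reading cannot be called 0. The array that deviated most from its group's mean over all genes was replicate 2 of 30 µM zoledronate at 48 h, with a root mean square deviation of 0.26 against a median of 0.16 over the 40 arrays. RHOB, a small GTPase gene long known to respond to statins, shows how far single arrays differed: with fluvastatin at 24 h its differences from the paired controls were 2.64, 1.09, 1.68 and 1.55, and with 30 µM zoledronate at 48 h they were 1.68, 0.25, 1.42 and 1.07.

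RRAS encodes R-Ras, a Ras relative with a role in integrin-mediated adhesion. With 100 µM zoledronate for 24 h the 4 arrays read 9.15, 9.21, 8.97 and 9.12, against 7.91, 8, 8.07 and 8.31 in their controls. Every treated array was above every control array, and at this dose the groups failed to overlap, in one direction or the other, for 33% of all genes. The change was 1.04 ± 0.11 (interval 0.8 to 1.27, adjusted p = 1.57e-07 by limma), with differences in the single pairs of 1.24, 1.21, 0.89 and 0.81. At this dose 32% of all genes changed and 15.3% rose. RRAS and RAP2A were thus 2 of 8 members that rose, and none fell. RNA came from whole cultures, in which a change in the share of cells and a change per cell cannot be told apart. The RRAS change lay between 0.97 and 1.11 under all 11 alternative settings and kept its call in each.

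With 2 µM fluvastatin for 24 h RRAS read 9.65, 8.64, 8.67 and 8.78, against 8.55, 8.49, 8.49 and 8.46 in the controls. Replicate 1 was far above the other 3 treated arrays. Means were 8.94 ± 0.48 with fluvastatin and 8.5 ± 0.04 in controls (SD, n = 4 each). The change was 0.44 ± 0.11 (interval 0.2 to 0.67, adjusted p = 0.0149 by limma), where 10.5% of all genes changed and 6.71% rose, and RRAS was the 1 member of 8 that did. Differences in the pairs were 1.1, 0.16, 0.17 and 0.32. Without the fluvastatin array of replicate 1 the change was 0.22 and no longer passed (adjusted p = 0.145), and the same array also held the largest RHOB difference. The call was also lost without all arrays of replicate 4 (0.48, adjusted p = 0.0681) and in a fit of only the arrays compared (adjusted p = 0.172).

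After 12 h of fluvastatin RRAS read 8.63, 8.57, 8.52 and 8.54, against 8.49, 8.45, 8.43 and 8.39 in the controls. The groups did not overlap and each pair differed by 0.09 to 0.15, yet the change of 0.12 ± 0.11 (interval -0.11 to 0.36) did not pass (adjusted p = 0.677 by limma). At 12 h 0.874% of all genes changed and 0.348% rose, and none of the 8 members was among them. Groups of arrays failed to overlap for 4.46% of all genes, and for RRAS and MRAS among the members. The fluvastatin effect on RRAS at 24 h minus that at 12 h was 0.31 ± 0.16 (interval -0.02 to 0.64) and did not pass (adjusted p = 0.478). In that comparison 0% of all genes passed, while 2014 genes (10.9%) had an unadjusted p under 0.05, none of them a member.

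Zoledronate at 30 µM left RRAS near its controls at the early times. At 12 h the arrays read 8.49, 8.55, 8.55 and 8.44, against 8.49, 8.45, 8.43 and 8.39 in controls, and the change was 0.07 ± 0.11 (interval -0.17 to 0.3). At 24 h they read 8.61, 8.58, 8.39 and 8.52, against 8.55, 8.49, 8.49 and 8.46 in controls, and the change was 0.03 ± 0.11 (interval -0.21 to 0.26). Treated and control arrays overlapped at both times, and the adjusted p was 1 at 12 h and 0.999 at 24 h. At both times 0% of all 18417 genes passed with limma, with 511 genes (2.77%) at an unadjusted p under 0.05 at 12 h and 866 (4.7%) at 24 h, none of them a member.

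At 48 h of 30 µM zoledronate RRAS read 8.47, 8.31, 8.48 and 8.62, against 7.96, 8.22, 8.23 and 8.37 in controls. All 4 pairs were higher, by 0.51, 0.09, 0.25 and 0.25, but the groups overlapped. The change of 0.27 ± 0.11 (interval 0.04 to 0.51) had an unadjusted p of 0.0238 and did not pass after adjustment (adjusted p = 0.15 by limma). The smallest of the 4 differences came from pair 2, which also held the smallest RHOB difference. Without the zoledronate array of that pair the RRAS change was 0.34 (adjusted p = 0.12).

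**Figure D2:**
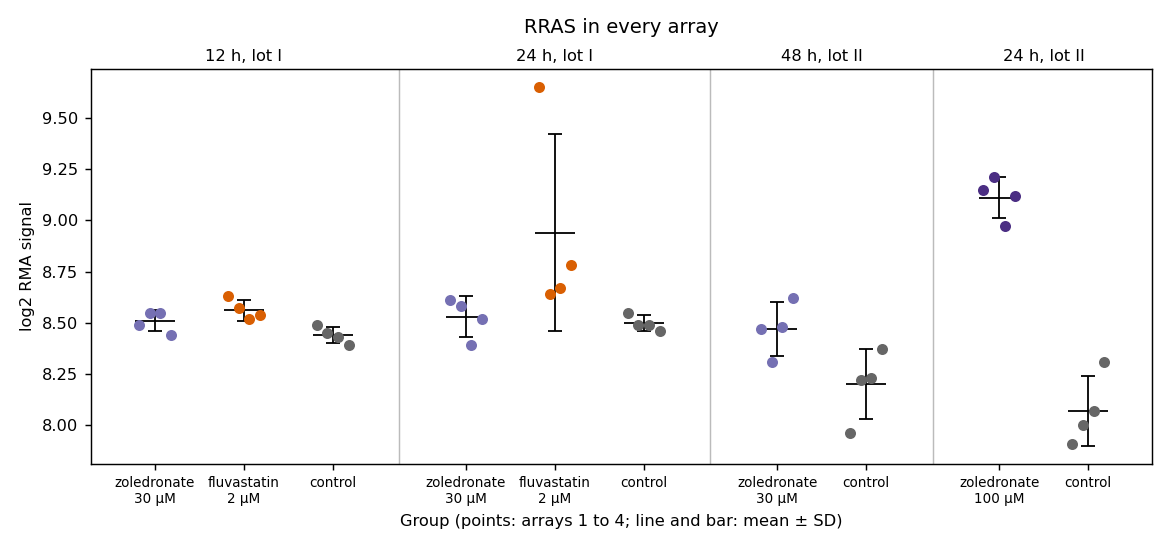
Log2 RMA signal of RRAS (vertical axis) in each of the 40 arrays by group, with lot and time above; points are arrays 1 to 4 from left to right, and lines with bars are mean ± SD. The 100 µM zoledronate arrays lie between 8.97 and 9.21, all above their controls, and 1 fluvastatin array at 24 h stands alone at 9.65.

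Set directly against each other within lot I, the agents differed for RRAS at 24 h. RRAS averaged 8.53 ± 0.10 with 30 µM zoledronate and 8.94 ± 0.48 with 2 µM fluvastatin (SD, n = 4 each), a zoledronate minus fluvastatin difference of -0.41 ± 0.11 (interval -0.64 to -0.18, adjusted p = 0.0288 by limma). In that comparison 7.23% of all genes differed and 4.3% were lower with zoledronate, and RRAS was the 1 member of 8. This difference rests on the same fluvastatin array as above, and without it was -0.2 (adjusted p = 0.301). It also failed without the replicate block (adjusted p = 0.0784), in a fit of only the 2 groups (0.223) and without all arrays of replicate 3 (0.108) or of replicate 4 (0.0962). At 12 h the difference was -0.06 ± 0.11 (interval -0.29 to 0.18, adjusted p = 0.897), where 0.738% of all genes and no member differed. The agents' doses differ in molarity, and the design text gives each as an equally inhibitory concentration for a longer treatment. Both agents at 12 h and 24 h share their control arrays.

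Within lot II, the RRAS effect of 100 µM zoledronate at 24 h exceeded that of 30 µM at 48 h by 0.76 ± 0.16 (interval 0.43 to 1.1, adjusted p = 0.00432 by limma). Dose and time differ together in this comparison and cannot be told apart. Among all genes 8.23% differed and 3.91% were more positive at 100 µM, and RRAS was the 1 member of 8. Without all arrays of replicate 3 the difference was 0.8 with an adjusted p of 0.0559, and without the zoledronate array of replicate 2 at 48 h it was 0.7 (adjusted p = 0.0081).

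RAP2A encodes Rap2a, a Rap relative known to signal through the kinases TNIK, MINK1 and MAP4K4. Its promoter is shown beside that of RAP2B, its closest relative among the members measured, because RAP2A rose and RAP2B did not pass in any group. These are the 250 bases before the RefSeq start (build GRCh38.p14), at chr13:97433919-97434168 on the plus strand for RAP2A and at chr3:153161976-153162225 on the plus strand for RAP2B, with GC boxes (GGGCGG, or CCGCCC on the other strand, overlapping matches counted) in capitals.
RAP2A: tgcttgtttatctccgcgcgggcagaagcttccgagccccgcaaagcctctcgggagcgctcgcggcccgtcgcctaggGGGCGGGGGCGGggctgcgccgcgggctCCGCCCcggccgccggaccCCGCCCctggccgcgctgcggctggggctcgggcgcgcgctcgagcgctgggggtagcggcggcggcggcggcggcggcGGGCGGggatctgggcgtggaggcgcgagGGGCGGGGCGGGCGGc
RAP2B: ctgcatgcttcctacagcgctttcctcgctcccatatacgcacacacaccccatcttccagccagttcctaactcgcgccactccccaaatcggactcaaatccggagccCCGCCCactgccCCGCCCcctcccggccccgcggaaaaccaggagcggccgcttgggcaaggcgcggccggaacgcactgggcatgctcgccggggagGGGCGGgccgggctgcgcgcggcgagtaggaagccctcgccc
The RAP2A window held 8 GC boxes and 82.8% G or C, and the RAP2B window held 3 GC boxes and 70% G or C. The RAP1B window held 6 GC boxes, and RAP1B did not pass in any group. A link between GC boxes and the changes was not tested. RefSeq windows were found for 8 of the 9 members, 13 windows in all, and not for RRAS. RRAS2 had 4 of these windows and MRAS 3, so several windows of 1 gene are counted apart. A GC box was in 9 of the 13, against 42.6% of all 35116 windows of the same length. The CCAAT box (CCAAT, or ATTGG on the other strand) was in 1 of the 13, that of HRAS, against 32% of all windows, and the E-box CACGTG was in 1, that of NRAS, against 6.34%. Neither TATAAA (or TTTATA), found in 10.7% of all windows, nor TGANTCA, found in 6.57%, matched any of them.

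RAP2A with 100 µM zoledronate for 24 h read 9.42, 9.40, 9.27 and 9.11, against 9.04, 8.92, 8.87 and 9.02 in controls. The lowest treated array was above the highest control array, and groups failed to overlap, in one direction or the other, for 33% of all genes at this dose. The change was 0.34 ± 0.09 (interval 0.16 to 0.52, adjusted p = 0.00342 by limma), with pair differences of 0.38, 0.49, 0.4 and 0.09. It lay between 0.29 and 0.42 under the 11 alternative settings and kept its call in each.

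With 30 µM zoledronate for 48 h RAP2A read 9.22, 8.97, 8.95 and 9.29, against 9.04, 8.96, 8.57 and 8.60 in controls. All pairs were higher, by 0.18, 0.01, 0.39 and 0.69, but the 2 groups overlapped, since control arrays 1 and 2 lay near the lower treated arrays. The change was 0.32 ± 0.09 (interval 0.14 to 0.49, adjusted p = 0.0259 by limma). At 48 h 7.59% of all genes changed and 3.16% rose, and RAP2A was the 1 member of 8 that passed. The call was lost without the replicate block (adjusted p = 0.0859), in a fit of only the arrays compared (0.363), after median centring (0.28, adjusted p = 0.0751) and without all arrays of replicate 1 (0.36, 0.0883), replicate 3 (0.29, 0.16) or replicate 4 (0.19, 0.213). Without the zoledronate array of replicate 2 the change was 0.42 (adjusted p = 0.0058).

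The RAP2A effects of 100 µM at 24 h and 30 µM at 48 h differed by 0.02 ± 0.12 (interval -0.23 to 0.28, adjusted p = 0.949). That interval leaves room for a difference of about the size of the effects themselves. For fluvastatin RAP2A had 9.22, 9.20, 9.32 and 9.24 at 12 h, against 8.90, 9.29, 8.96 and 9.20 in controls, and 9.23, 9.31, 9.28 and 9.36 at 24 h, against 9, 9.15, 9.18 and 9.24 in controls. The groups overlapped at both times. The changes were 0.16 ± 0.09 at 12 h (interval -0.02 to 0.34, adjusted p = 0.424) and 0.15 ± 0.09 at 24 h (interval -0.03 to 0.33, adjusted p = 0.288), so neither passed, although all 4 pairs were higher at 24 h. With 30 µM zoledronate the RAP2A change was 0 ± 0.09 at 12 h (interval -0.18 to 0.18) and 0.02 ± 0.09 at 24 h (interval -0.16 to 0.2).

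**Figure D3:**
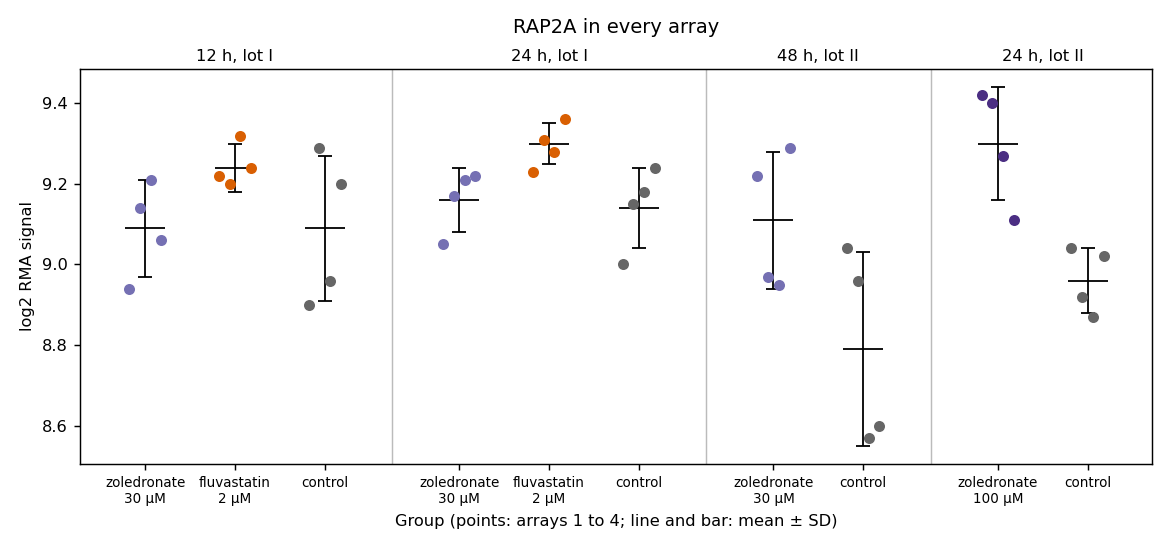
Log2 RMA signal of RAP2A (vertical axis) in each of the 40 arrays by group, with lot and time above; points are arrays 1 to 4 from left to right, and lines with bars are mean ± SD. The 100 µM zoledronate arrays lie between 9.11 and 9.42, above controls at 8.87 to 9.04, while the 30 µM zoledronate arrays at 48 h (8.95 to 9.29) overlap theirs (8.57 to 9.04).

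RAP2B, which encodes the close relative Rap2b, stayed between -0.04 and 0.06 in all 6 treated groups. With 100 µM zoledronate its arrays read 9.34, 9.33, 9.30 and 9.34, against 9.34, 9.40, 9.29 and 9.44 in controls, a change of -0.04 ± 0.06 (interval -0.16 to 0.08, adjusted p = 0.683). The interval for RAP2B thus ended at 0.08 and that for RAP2A began at 0.16 in the same arrays, and the difference between the genes was not tested.

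RAP1A and RAP1B encode the Rap1 proteins, which control integrin activation and cell junctions. RAP1A read 8.16, 8.09, 8.26 and 8.45 with 30 µM zoledronate at 48 h, against 8.67, 8.32, 8.5 and 8.40 in controls. It was lower in 3 of 4 pairs, and the change of -0.23 ± 0.08 (interval -0.4 to -0.07) narrowly missed the threshold (unadjusted p = 0.00724, adjusted p = 0.0744 by limma). It passed when the dimmest 33.3% of genes was removed (adjusted p = 0.0417) and without all arrays of replicate 4 (-0.33, adjusted p = 0.0397). With 100 µM zoledronate RAP1A read 8.33, 8.25, 8.21 and 8.32, against 8.37, 8.48, 8.45 and 8.33 in controls, a change of -0.13 ± 0.08 (adjusted p = 0.24). RAP1B read 10.08, 10.09, 10.05 and 10.04, against 10.20, 10.16, 10.16 and 10.18 in controls, a change of -0.11 ± 0.06 (interval -0.24 to 0.01, adjusted p = 0.184). For both genes every treated array was at or below the lowest control array, which at this dose held for one direction or the other in 33% of all genes, and neither change passed. A different probe set also carries the RAP1B symbol, and read 10.02, 9.96, 9.97 and 10.07 with 100 µM zoledronate, against 10.08, 10.09, 10.05 and 10.11 in controls, with overlap between the groups.

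HRAS, a founding member of the family that relays growth factor signals, had changes of -0.03 to 0.08. It read 9.27, 9.25, 9.32 and 9.24 with 100 µM zoledronate, against 9.23, 9.13, 9.16 and 9.24 in controls, and the change of 0.08 ± 0.08 had an interval of -0.09 to 0.26 (adjusted p = 0.538). With fluvastatin at 24 h the HRAS change was 0 ± 0.08 (interval -0.17 to 0.18). A rise of the size seen for RRAS at 100 µM lies outside both intervals.

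RRAS2, which encodes the R-Ras relative TC21, had changes of -0.13 to 0.08. Its lowest change came with 100 µM zoledronate, at -0.13 ± 0.07 (interval -0.27 to 0.02), and did not pass (adjusted p = 0.189 by limma). RRAS2 arrays there read 8.96, 8.84, 8.94 and 8.98, against 9.21, 9.03, 9.04 and 8.95 in controls. RRAS2 was lower in 3 of 4 pairs there, while RRAS was higher in 4 of 4. MRAS encodes M-Ras, which joins SHOC2 and a phosphatase in the complex that activates RAF kinases. It read 6.07, 6.17, 6.16 and 5.89 with 100 µM zoledronate, against 6.16, 6.13, 6.19 and 6.38 in controls, a change of -0.14 ± 0.10 (interval -0.34 to 0.06, adjusted p = 0.306). Its 12 h fluvastatin arrays read 6.59, 6.55, 6.54 and 6.69, above all controls at 6.47, 6.51, 6.40 and 6.52, and the change of 0.12 ± 0.10 (interval -0.08 to 0.32) did not pass (adjusted p = 0.629).

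**Figure D4:**
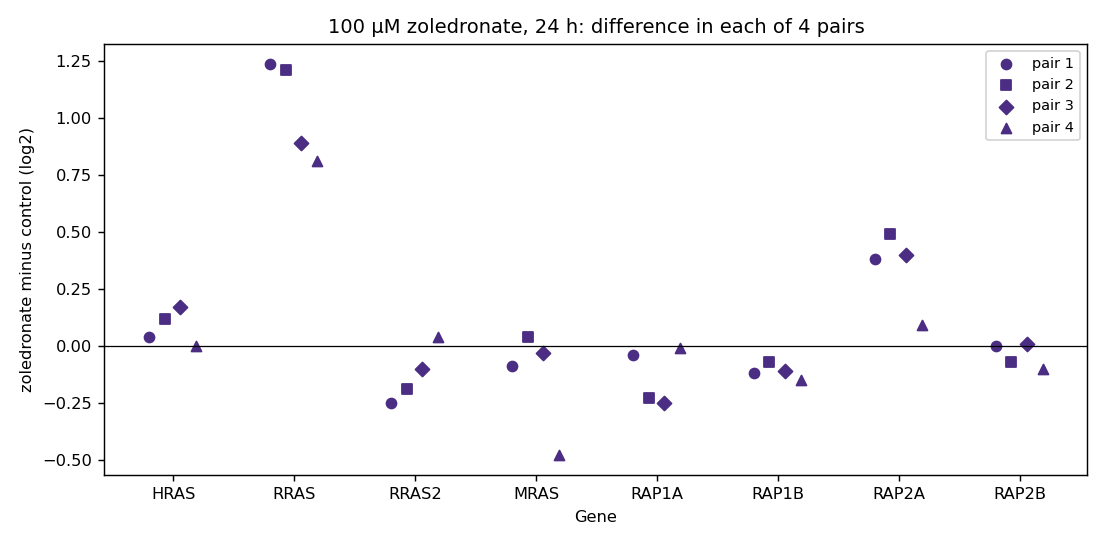
Difference of 100 µM zoledronate minus its paired control at 24 h (vertical axis, log2) for each of the 8 measured genes, with 1 symbol for each of the 4 pairs. RRAS ranges from 0.81 to 1.24 and RAP2A from 0.09 to 0.49, while RAP1A and RAP1B lie below 0 in all 4 pairs.

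Across the 8 members the median change was -0.08 with 100 µM zoledronate, against 0.01 over all genes, and -0.03 with 30 µM zoledronate at 48 h, against 0.01. It was 0.06 with fluvastatin at 12 h, against 0.01 over all genes, and 0.05 at 24 h, against -0.01. With 30 µM zoledronate it was 0.07 at 12 h, against 0.01, and 0.02 at 24 h, against 0. The spread between arrays left after the fit was 0.07 for RAP1B and RAP2B, 0.09 for RRAS2, 0.11 for RAP1A, 0.12 for HRAS and RAP2A, 0.14 for MRAS and 0.17 for RRAS, with a median of 0.14 over all genes.

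Control readings of some members were set apart by lot. At 24 h, RRAS read 7.91 to 8.31 in the controls of lot II and 8.46 to 8.55 in those of lot I, and HRAS read 9.13 to 9.24 in lot II and 9.27 to 9.61 in lot I. RAP1A had the higher readings in lot II, at 8.33 to 8.48 in lot II and 7.89 to 8.30 in lot I. The ranges of these 3 genes did not overlap, and those of the other 5 members did. The share of all genes set apart by lot in this way was not computed. The difference between lots therefore cannot be called particular to these members. Whether the lots were normalised together is not given in the sources used here, so no test was made across them, and the 24 h effects of 100 µM zoledronate (RRAS 1.04, lot II) and 30 µM zoledronate (RRAS 0.03, lot I) stand side by side only.

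The genes whose 6 fitted changes were nearest to those of RRAS, by root mean square difference, were FBXO32 (0.05), TP53I3 (0.06) and ADAP1 (0.06), against a median of 0.49 over 18416 genes. These genes, and those named below for RAP2A, were picked for likeness over the same 6 changes. The sizes of their changes and the adjusted p therefore follow largely from the choice and are no separate support. Shared regulation was not tested. FBXO32 encodes the ubiquitin ligase subunit atrogin-1, and TP53I3 is a known p53 target. With 100 µM zoledronate FBXO32 rose by 1.03 ± 0.14, TP53I3 by 0.97 ± 0.10 and ADAP1 by 0.95 ± 0.13 (adjusted p = 4.47e-06, 9.58e-08 and 3.05e-06 by limma). Their largest fluvastatin differences at 24 h, of 1.08, 0.93 and 1.01, also came from pair 1. Nearest to RAP2A were ZC2HC1C (0.03), NDRG4 (0.03) and CYBA (0.04), against a median of 0.23. CYBA, which encodes a subunit of the NADPH oxidase complex, rose by 0.33 ± 0.08 with 30 µM zoledronate at 48 h and by 0.35 ± 0.08 with 100 µM (adjusted p = 0.0168 and 0.00166). NDRG4 rose by 0.32 ± 0.09 and 0.39 ± 0.09 in the same groups (adjusted p = 0.0285 and 0.00137), and ZC2HC1C passed in neither.

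Genes that act on or with Ras and Rap were followed in 9 lists, of which 81 of 90 genes were measured. None of the 81 passed with 30 µM zoledronate at 12 h or 24 h, and RASAL2 alone passed with fluvastatin at 12 h. The counts below stand against 10.5% of all genes changed with fluvastatin at 24 h (6.71% rose), 7.59% with 30 µM zoledronate at 48 h (3.16% rose) and 32% with 100 µM zoledronate (15.3% rose). Among the Ras GEFs, 2 of 8 rose with fluvastatin at 24 h, 1 rose with 30 µM zoledronate at 48 h, and 2 rose and 1 fell with 100 µM zoledronate, where 3 changed of 8 is near the share of all genes. The risers were SOS1 and SOS2, the exchange factors that couple growth factor receptors to Ras. SOS2 rose by 0.86 ± 0.12 with 100 µM zoledronate and by 0.47 ± 0.12 with fluvastatin at 24 h. SOS1 rose by 0.47 ± 0.08 with 100 µM zoledronate, by 0.40 ± 0.08 with fluvastatin at 24 h and by 0.26 ± 0.08 with 30 µM zoledronate at 48 h. The SOS1 call at 48 h was lost after median centring (adjusted p = 0.105 by limma). The list's median change was -0.01 with 100 µM zoledronate against 0.01 over all genes. RASGRF1 fell by 0.29, a call lost when its probe sets were averaged (adjusted p = 0.299).

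Of the 5 Rap GEFs measured, none passed with fluvastatin or with 30 µM zoledronate, and with 100 µM zoledronate RAPGEF5 fell by 0.52 ± 0.13 while RAPGEF1 (0.23 ± 0.07) and RAPGEF3 (0.24 ± 0.06) rose. The last 2 calls were lost when probe sets were averaged (adjusted p = 0.482 and 0.155). Among 5 Ras GAPs measured, RASAL2 was the one that moved repeatedly. It fell by 0.38 ± 0.07 with fluvastatin at 12 h, by 0.33 ± 0.07 with fluvastatin at 24 h, by 0.31 ± 0.07 with 30 µM zoledronate at 48 h and by 0.78 ± 0.07 with 100 µM zoledronate (adjusted p = 0.0148, 0.00664, 0.0115 and 2.6e-08 by limma). The call with 100 µM zoledronate held in every alternative run, while those of the other 3 groups were lost without all arrays of replicate 1 (-0.33, -0.28 and -0.34 for fluvastatin at 12 h, fluvastatin at 24 h and 30 µM zoledronate at 48 h) or of replicate 3 (-0.38, -0.32 and -0.26). In the same order of groups, they were also lost without the replicate block (adjusted p = 0.358, 0.199 and 0.272) and in a fit of only the arrays compared (adjusted p = 0.132, 0.0927 and 0.295). RASA3 rose by 0.19 ± 0.06 with 100 µM zoledronate, a call lost in a fit of only the arrays compared (adjusted p = 0.0866). Of 5 Rap GAPs measured, SIPA1L3 alone passed. It fell by 0.23 ± 0.07 with fluvastatin at 24 h and by 0.34 ± 0.07 with 100 µM zoledronate. Its fluvastatin call was lost after median centring (adjusted p = 0.0614 by limma).

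Of 9 Ras effectors measured, 4 rose and none fell with fluvastatin at 24 h, 1 rose at 48 h of 30 µM zoledronate, and 6 rose and 1 fell with 100 µM zoledronate. The list's median was 0.25 with 100 µM zoledronate and 0.1 with fluvastatin at 24 h, against 0.01 and -0.01 over all genes. RALGDS, an exchange factor that links Ras to the Ral GTPases, rose by 1.08 ± 0.11 with 100 µM zoledronate and by 0.40 ± 0.11 with 30 µM at 48 h. Its relative RGL2 rose by 0.52 ± 0.07 with 100 µM zoledronate and by 0.32 ± 0.07 with fluvastatin at 24 h, and the kinase ARAF rose by 0.29 ± 0.06 with 100 µM zoledronate. SHOC2, the scaffold that binds M-Ras, rose by 0.25 ± 0.07 with fluvastatin at 24 h. Of 7 Rap effectors measured, 3 rose with fluvastatin at 24 h, 1 rose and 1 fell with 30 µM zoledronate at 48 h, and 4 rose and 1 fell with 100 µM zoledronate. MAP4K4 and TNIK, 2 kinases of the Rap2 branch, rose by 1.03 ± 0.11 and 0.79 ± 0.12 with 100 µM zoledronate and by 0.62 ± 0.11 and 0.58 ± 0.12 with fluvastatin at 24 h. AFDN, which encodes the junction protein afadin, rose by 0.33 ± 0.07 with 100 µM zoledronate and by 0.22 ± 0.07 with fluvastatin at 24 h. The AFDN call with fluvastatin was lost under renewed quantile normalization and after median centring (adjusted p = 0.0683 and 0.0748 by limma).

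Of 17 other Ras-like GTPases, 3 rose with fluvastatin at 24 h, 1 fell with 30 µM zoledronate at 48 h, and 2 rose and 3 fell with 100 µM zoledronate, again near the 32% of all genes that changed. RIT1 rose by 0.34 ± 0.07 with 100 µM zoledronate and by 0.25 ± 0.07 with fluvastatin at 24 h, and RALB by 0.40 ± 0.10 with fluvastatin at 24 h. RHEB, the activator of mTORC1, fell by 0.23 ± 0.06 both with 100 µM zoledronate and with 30 µM at 48 h. Both RHEB calls were lost under renewed quantile normalization (adjusted p = 0.0696 and 0.0541). So was the RIT1 call with fluvastatin (adjusted p = 0.0516 by limma), which was also lost after median centring (0.056). Of 10 genes for CAAX processing and GTPase trafficking, 1 rose with fluvastatin at 24 h, none passed with 30 µM zoledronate at 48 h, and 2 rose and 3 fell with 100 µM zoledronate. PDE6D, a carrier of prenylated Ras proteins, rose by 0.48 ± 0.09 with 100 µM zoledronate and by 0.37 ± 0.09 with fluvastatin at 24 h. LYPLA1, which removes palmitate from proteins, fell by 0.33 ± 0.08, and PGGT1B, the beta subunit of the enzyme that attaches geranylgeranyl groups, by 0.25 ± 0.07 with 100 µM zoledronate. In the lists whose medians are not given above, the median change with 100 µM zoledronate was 0.03 for the Rap GEFs, 0.04 for the Ras GAPs, 0.09 for the Rap GAPs, 0.25 for the Rap effectors, 0.07 for the other Ras-like GTPases and 0.01 for CAAX processing and trafficking, against 0.01 over all genes.

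Of 15 genes induced by ERK signalling downstream of Ras, 8 rose and 1 fell with fluvastatin at 24 h, 6 rose with 30 µM zoledronate at 48 h, and 7 rose and 3 fell with 100 µM zoledronate, where the shares of all genes changed were 10.5%, 7.59% and 32%. The list's medians were 0.35, 0.14 and 0.18 in that order, against -0.01, 0.01 and 0.01 over all genes. IER3 rose by 0.67 ± 0.12 with fluvastatin at 24 h, 0.67 ± 0.12 with 30 µM zoledronate at 48 h and 0.97 ± 0.12 with 100 µM. DUSP5, an ERK phosphatase, rose by 0.75 ± 0.09, and SPRY4, a feedback inhibitor, by 0.82 ± 0.10 with 100 µM zoledronate. DUSP4 rose by 0.47 ± 0.08 and SPRED1 by 0.52 ± 0.10 with fluvastatin at 24 h. Without the fluvastatin array of replicate 1 at 24 h, 4 of the 15 passed in place of 9. Over all lists, 17 genes are named by rule for fluvastatin at 24 h, of which 7 kept their call without that array, 7 without the replicate block and 0 in a fit of only the arrays compared. For 30 µM zoledronate at 48 h, 7 of 9 kept it without the zoledronate array of replicate 2, 2 of 9 without all arrays of replicate 3, 2 of 9 without the block and 0 of 9 in a fit of only the arrays compared. For 100 µM zoledronate, 20 to 23 of 24 kept it when 1 replicate number was left out, 17 without the block and 23 in a fit of only the arrays compared.

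**Figure D5:**
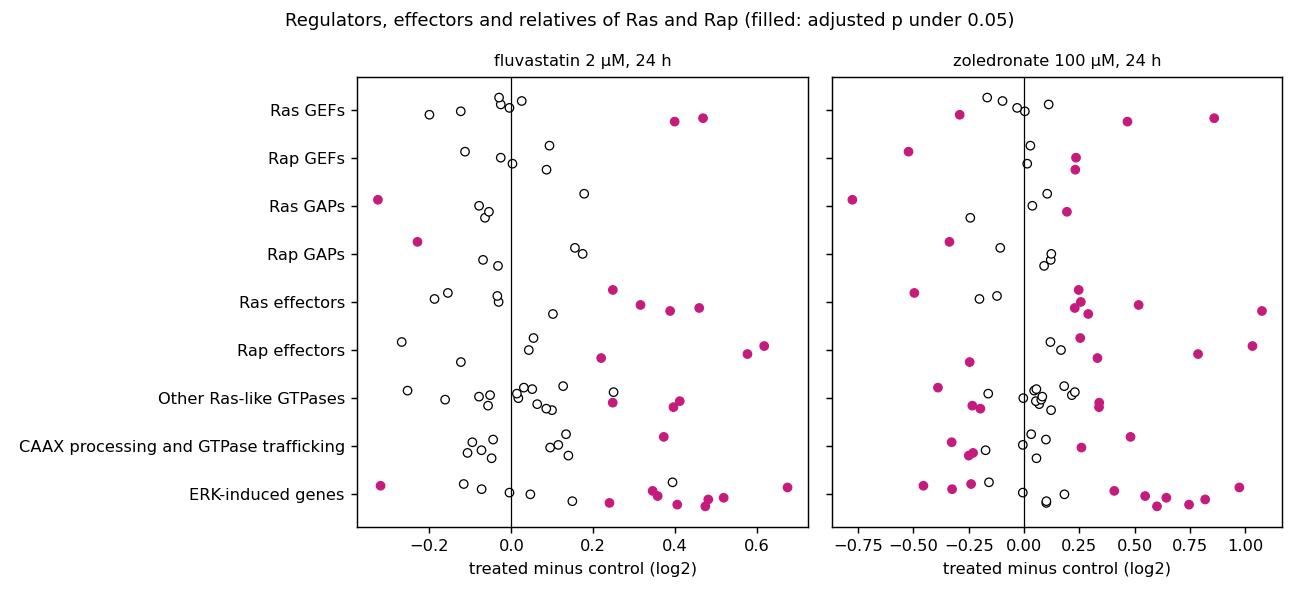
Fitted log2 change, treated minus control, of each measured gene in 9 lists of Ras and Rap regulators, effectors and relatives (rows) with fluvastatin at 24 h (left) and 100 µM zoledronate at 24 h (right); filled points had an adjusted p under 0.05, and the horizontal scales differ. Of the ERK-induced genes 8 of 15 are filled to the right of 0 with fluvastatin and 7 of 15 with 100 µM zoledronate.

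Some markers moved in the groups where RRAS and RAP2A did. PECAM1, an endothelial marker, rose by 1.30 ± 0.16 with 100 µM zoledronate, 0.59 ± 0.16 with 30 µM at 48 h and 0.98 ± 0.16 with fluvastatin at 24 h, and was the 1 of 6 fibroblast and endothelial markers that passed. Summed over those 6, log2 signals ranged from 32.21 to 32.47 with 100 µM zoledronate, against 30.82 to 31.27 in controls, from 31.21 to 32.68 with 30 µM at 48 h, against 30.49 to 31.5, and from 31.15 to 32.98 with fluvastatin at 24 h, against 31.38 to 31.53. The fibroblast marker DCN stayed between 3.3 and 3.6 in the mean of every group. Of 4 blood cell markers CD14 alone passed, rising by 0.42 ± 0.13 with 100 µM zoledronate and 0.52 ± 0.13 with fluvastatin at 24 h, while PTPRC stayed between 3.23 and 3.53. The line's own marker AXL fell by 0.73 ± 0.08 with 100 µM zoledronate, 0.31 ± 0.08 with 30 µM at 48 h and 0.50 ± 0.08 with fluvastatin at 24 h. CAV1 fell by 0.51 ± 0.10 with 100 µM zoledronate. VIM and CD44, also among the 4 mesenchymal markers measured, passed in no treated group. Of the 8 luminal markers, KRT8 rose by 0.55 ± 0.08 with 100 µM zoledronate, 0.35 ± 0.08 with 30 µM at 48 h and 0.27 ± 0.08 with fluvastatin at 24 h, and ERBB2 rose by 0.46 ± 0.07 with 100 µM zoledronate. The part of these shifts in the results for the GTPases was not tested.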

How the data were processed

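Total RNA of 40 MDA-MB-231 cultures was hybridised to 1 array each, 4 in each of 10 groups taken from the labels. The deposited values are log2 signals that the authors made with RMA in Affymetrix Power Tools 1.10.2, per the submitters' processing notes, which also name limma. The genome build is not given in the sources used here. RMA's quantile step sets arrays to a common scale, so a change is relative to the other genes, and the number of arrays limits the precision.

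Of 33297 probe sets, 19460 had exactly 1 symbol in the platform annotation, 1754 had several and 12083 were not listed there. Symbols were updated by gene number through RefSeq (GRCh38.p14) for 19429. Where several probe sets named 1 gene, as for 769 genes, the brightest on average was kept, which left 18417 genes, and all 8 measured members were among the 12278 left when the dimmest 33.3% was removed. Promoter windows are from RefSeq (GRCh38.p14).

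A limma fit (3.58.1, R 4.3.3) of all 40 arrays held a block for each of 16 pairings (lot, time and replicate) and 6 treated effects, with 18 residual degrees of freedom. The series' design text states that treated and control cells were paired by day of measurement. Deviations of paired arrays from their group means correlated at 0.17 to 0.6 in all 16 pairs of lot I, and at -0.3 to 0.55 in lot II, where 3 of 8 exceeded 0.1. The script was tested on simulated data.

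The members and the lists were chosen with earlier results of these data known. Named genes are all members, RHOB, up to 3 called genes per list and comparison with the smallest p, and the 3 genes nearest to each called member. Alternatives were no block, only the arrays compared, other normalizations, no dim genes, averaged probe sets, an intensity trend and each replicate number left out. After the data had been seen, 2 more were added, which left out the zoledronate array of replicate 2 at 48 h and the fluvastatin array of replicate 1 at 24 h.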

Additional observations from a re-analysis of the deposited data

Results flagged for a closer look

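The RRAS signal of fluvastatin replicate 1 at 24 h, 9.65, stood apart from its group, whose other arrays lay between 8.64 and 8.78. Its gap to the nearest array was 0.86 of the group's whole range, above Dixon's critical value at the 95% level for 4 arrays. This was the 1 such value among 80 groups of a member tested, and chance gives about 1 in 20.

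The RRAS effect differed between the agents at 24 h in lot I, by -0.41 for 30 µM zoledronate minus 2 µM fluvastatin (adjusted p = 0.0288 by limma), which rests in part on that array. It also differed between 100 µM zoledronate at 24 h and 30 µM zoledronate at 48 h in lot II, by 0.76 (adjusted p = 0.00432). No cause of these differences was tested.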

How the results depend on the processing

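Of 920 member values recomputed under the alternatives, 901 kept their side of the threshold, 17 lost a call, 2 gained one and 0 called values changed sign. Among 850 values without a call, 39 changed sign, the largest at 0.13. Array number and the small size of most members' changes are the limits here.

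Without the replicate block, which drops the pairing by day, 0 members in place of 1 passed for 30 µM zoledronate at 48 h and for zoledronate minus fluvastatin at 24 h. The counts over all genes were then 20 in place of 161 for fluvastatin at 12 h, 663 in place of 1930 at 24 h, 349 in place of 1397 for 30 µM zoledronate at 48 h, 14 in place of 136 and 367 in place of 1332 for zoledronate minus fluvastatin at 12 h and 24 h, and 514 in place of 1515 for 100 µM at 24 h minus 30 µM at 48 h. With only the arrays compared, which leaves fewer residual degrees of freedom, these counts were 14, 2, 0, 13, 0 and 516, and 0 members passed for fluvastatin at 24 h, 30 µM zoledronate at 48 h and zoledronate minus fluvastatin at 24 h. Removing the dimmest 33.3% of genes gave 281 genes for fluvastatin at 12 h, 246 for zoledronate minus fluvastatin at 12 h and 2 members for 30 µM zoledronate at 48 h. An intensity trend gave 292 and 265 genes in those 12 h comparisons, and median centring gave 0 members for 30 µM zoledronate at 48 h.

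Leaving out a replicate number or a single array moved the counts of all genes to 0 to 34 for fluvastatin at 12 h, 286 to 2398 for fluvastatin at 24 h, 426 to 1657 for 30 µM zoledronate at 48 h, 0 to 46 and 150 to 1592 for zoledronate minus fluvastatin at 12 h and 24 h, 0 to 1 for the fluvastatin effect at 24 h minus 12 h, and 289 to 2700 for 100 µM at 24 h minus 30 µM at 48 h. The lowest 24 h counts came without replicate 1, and without the fluvastatin array of replicate 1 alone they were 460 and 211. The count of 2700 came without the zoledronate array of replicate 2 at 48 h. The number of members that passed was 0 to 1 in each comparison with 1 call. With 100 µM zoledronate the same 2 members passed in all alternatives. The cause of these changes was not tested.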
